A study of Mus musculus with 94 samples.

Results

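The comparison was between the brains of Mgmt-/- mice killed 6 hr after a single intraperitoneal dose of methylazoxymethanol (MAM) and those of Mgmt-/- mice killed 6 hr after vehicle, dilute acetic acid in saline. Its members were chosen by label, genotype, agent and time, which gave 12 of the 94 arrays of the series, 6 per group. All 12 mice were male C57BL6 animals 11 weeks old, all lacked Mgmt, and RNA of the right side of each brain was hybridized to 1 array with 45101 probe sets. Arrays are named by their labels, which end in the animal number. The numbers fell into a lower set (MGMT.VEH.6.301, MGMT.VEH.6.303 and MGMT.VEH.6.305 with vehicle, MGMT.MAM.6.325, MGMT.MAM.6.327 and MGMT.MAM.6.329 with MAM) and a higher set (MGMT.VEH.6.901, MGMT.VEH.6.903 and MGMT.VEH.6.905 with vehicle, MGMT.MAM.6.949, MGMT.MAM.6.951 and MGMT.MAM.6.953 with MAM), each with 3 arrays per group, and the number set was a term in the fits. Values are log2 probe set signals, differences are MAM minus vehicle, and the RNA is that of mixed cells, so that fewer cells of a type and less RNA per cell cannot be told apart.

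MAM is the active metabolite of cycasin, a glucoside of cycad plants, and it methylates DNA bases, among them guanine at the O6 position. MGMT removes that methyl group by taking it onto a cysteine of its own in a reaction that uses up the protein. In mice without Mgmt the O6-methylguanine lesion is left to other repair systems, and in adult brain most cells that carry it are neurons and glia that no longer divide. A probe set reads only a stretch near an annotated end of a transcript, so several probe sets of 1 gene can follow different transcript ends.

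After MAM more genes were called lower than higher in the fit of both number sets together. Fitted alone, each number set called more genes higher than lower. The shares were 2.65% higher and 1.75% lower in the higher set, and 0.0165% and 0% in the lower set. The largest falls were those of probe sets of Grm5, Atrx, Smg1, Gad2 and Ntrk2, and the largest rises those of Alb, Tra2a, Cpeb2, Pglyrp1 and Xdh. Genes were called at a Benjamini-Hochberg adjusted p under 0.05 and a fold above 1.3 in limma, a moderated linear model, whenever any probe set naming that gene alone passed. A gene with more probe sets thus had more chances to be called. The shares over all genes, which had 34958 such probe sets, do not allow for that. The calls covered 1.84% of 18194 named genes, with 77 higher (0.423%) and 258 lower (1.42%). They came from 386 probe sets whose median difference was 0.48 for the 86 that rose and -0.48 for the 300 that fell. In 254 of these 386 probe sets the groups did not overlap, against 1.87% of all probe sets. The calls were made on the same arrays and favour such probe sets, so this adds no support. The smallest adjusted p was 0.0011, for Slc6a6. The share of genes called, 1.84%, rested on several animals: it was 0.214% without MGMT.MAM.6.951, 0.379% without MGMT.VEH.6.303, 0.561% without MGMT.VEH.6.903, 0.599% without MGMT.MAM.6.953, 0.61% without MGMT.VEH.6.301 or MGMT.VEH.6.901, 0.682% without MGMT.MAM.6.949, 0.83% without MGMT.VEH.6.305 and 0.951% without MGMT.MAM.6.329. Without MGMT.MAM.6.325, MGMT.VEH.6.903 and MGMT.VEH.6.905, the 3 highest on the first principal component, it was 0.126%.

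The 12 arrays differed in more than the treatment. The first principal component held 54% of the variance and set MGMT.VEH.6.301, MGMT.VEH.6.303 and MGMT.VEH.6.305 and MGMT.MAM.6.327 (-0.33 to -0.31) apart from MGMT.VEH.6.903 and MGMT.VEH.6.905 (0.48 and 0.50) and MGMT.MAM.6.325 (0.26). The second, with 11.9%, placed every MAM array above the vehicle arrays of the same number set. An index of RNA integrity, the mean 3' minus 5' difference of the Gapdh and Actb control probe sets, was 0.417 to 0.460 with vehicle and 0.570 to 0.750 with MAM, with no overlap and an exact two-sided permutation p = 0.005 within number sets, the smallest that 400 arrangements allow. The Actb pair carried it (0.849 ± 0.034 and 1.23 ± 0.11, SD, n = 6 each), while the Gapdh pair was 0.018 ± 0.031 and 0.038 ± 0.021 (exact p = 0.25). The transferrin receptor controls, outside the index, fell more at the 3' end (-0.505, SE 0.084) than at the 5' end (-0.29, SE 0.07). Their signal was low (vehicle means 6.26 and 4.48). Those of pyruvate carboxylase differed by 0.155 (SE 0.069) at the 3' end and -0.074 (SE 0.121) at the 5' end. With the index as a covariate no gene passed the thresholds in limma (1048 probe sets, 2.32%, at an unadjusted p under 0.05). The median difference of the called probe sets was then -0.41 and 0.47, and their median SE rose from 0.09 in both directions to 0.24 and 0.25. Because the index separated the groups, this fit cannot tell it apart from the treatment. The part of RNA integrity in the differences was not tested further. The Mgmt probe set read 5.09 to 6.45 in the Mgmt-/- brains and 5.54 to 6.21 in 12 wt brains of the same hour, so this probe set does not distinguish the genotypes. Markers of neurons (mean level 11.38 to 11.58), astrocytes (10.13 to 10.44), myelin (8.98 to 9.66) and microglia (6.66 to 7.83) were measured on all 12 arrays.

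**Figure D1:**
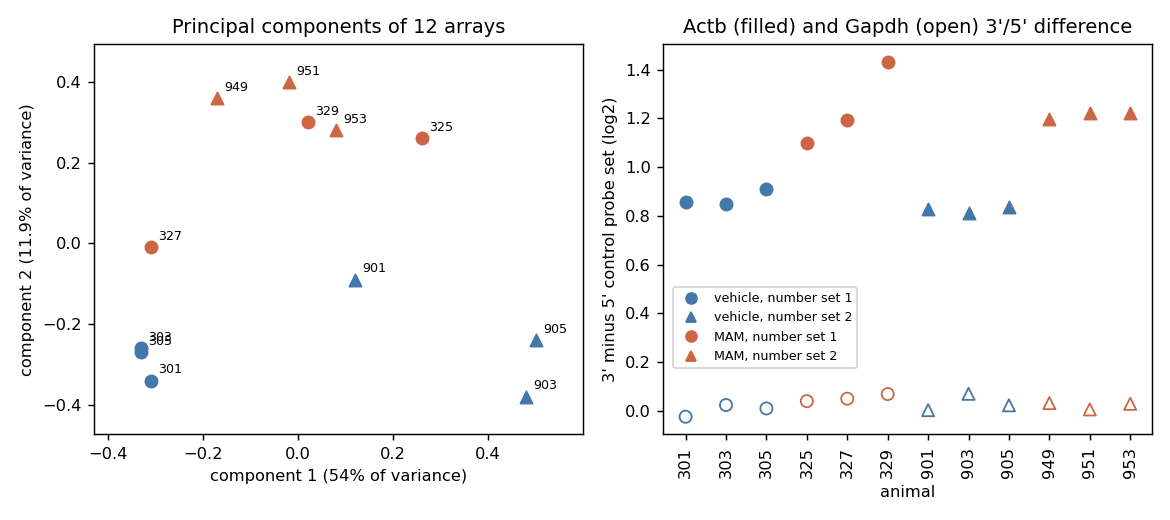
Left, scores of the 12 arrays on the first and second principal components of log2 signal, labelled by animal. Right, the 3' minus 5' difference of the Actb (filled) and Gapdh (open) control probe sets in log2 units for each animal. The Actb difference was 0.811 to 0.911 in the 6 vehicle arrays and 1.1 to 1.43 in the 6 MAM arrays.

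Receptors and enzymes of glutamate and GABA transmission were among the deepest falls. Grm5, the metabotropic glutamate receptor 5, read 8.37, 9.24 and 9.46 (lowest, median, highest) with vehicle and 7.13, 7.64 and 8.08 with MAM. All 6 MAM values lay under all 6 vehicle values, and the fall of 2.85-fold was the largest of the called genes (-1.51 ± 0.19, SE, adjusted p = 0.010). Gad2, which makes GABA from glutamate, went from 7.46, 7.69 and 7.86 to 5.67, 6.64 and 7.03, again without overlap (2.37-fold, adjusted p = 0.020). Among ionotropic subunits, Gria4 of the AMPA class fell by 0.69 and Grik2 of the kainate class by 0.43 on the log2 scale, 2 of 15 measured members of the AMPA, kainate and NMDA list. The GABA-A subunit Gabrb2 fell by 0.80, from 7.08 to 7.94 with vehicle to 6.27 to 7.16 with MAM, so that its groups overlapped, and it was 1 of 10 measured GABA receptor genes. Bdnf, the ligand of TrkB, fell by 0.65 with no overlap, and Ntrk2, which encodes TrkB, fell 2.33-fold, from a median of 6.44 to one of 5.27. Over all genes 1.42% were called lower. The GABA receptor list had 31 probe sets and the neurotrophin list 24, more per gene than all genes had. The medians of these lists over 1 probe set per gene (-0.05, 0.06, -0.06 and 0.08 for metabotropic, ionotropic, GABA and neurotrophin genes) lay near that of all genes, 0.02.

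Proteins that act on membranes and vesicles followed. Slc6a6, the taurine transporter, is outside the naming rule and was chosen for its adjusted p. It read 8.25 to 8.5 with vehicle and 7.23 to 7.57 with MAM, a fall of 1.94-fold (SE 0.08 in log2). The brightest other Slc6a6 probe set (mean 10 against 7.9) differed by 0 (SE 0.06). Of 28 measured genes of vesicle release and recycling, with 74 probe sets, 3 fell, where 1.42% of all genes were called lower. They were Nsf, the ATPase that takes apart spent SNARE complexes, and its adaptors Napb and Napg. Napb fell in 3 of its 6 probe sets, by 0.84 at most, and in the probe set with that fall MGMT.MAM.6.327 read within the vehicle range. Napg fell by 0.43 from 8.39 to 8.66 into 8.07 to 8.21. The one rise on that list was Syp, whose called probe set was dim, 4.12 to 4.69 with vehicle and 4.78 to 5.29 with MAM, while its bright probe set differed by 0.21 with an SE of 0.13. Cdh13, a cadherin without a transmembrane segment, fell by 0.47, 1 of 21 synaptic adhesion genes. No potassium, sodium or calcium channel gene of the 21 measured was called in limma (1 at an unadjusted p under 0.05). Osbpl6, which binds sterols, fell by 1.11 and Pitpnc1, a phosphatidylinositol transfer protein, by 1.06, both without overlap. Pcp4l1, a relative of the calmodulin-binding Pcp4, fell by 1.03, with MGMT.MAM.6.327 (9.12) within the vehicle range of 8.96 to 9.35. Nedd4, a ubiquitin ligase of membrane proteins, fell from 10.03 to 10.23 into 8.26 to 9.84. Its difference went from -0.99 to -0.23 (SE 0.57) with the RNA index as a covariate.

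The lists of calcium, cyclic nucleotide and MAPK signaling held 8 falls and no rise among 21, 32 and 18 measured genes, where 1.42% of all genes were called lower and 0.423% higher. Camk1d, a calmodulin-dependent kinase, fell 2.04-fold from 7.95 to 8.53 into 6.61 to 7.92. Pde1a, a calmodulin-dependent phosphodiesterase that breaks down cyclic nucleotides, fell 1.98-fold, from 8.89 to 9.42 into 7.38 to 8.48. The other calcium genes were Camk2d (-0.54), Cabin1, a calcineurin inhibitor (-0.63), and Atp2b1, a plasma membrane calcium pump (-0.44), which made 4 of 21 measured members. Crem (-0.60) and Prkar1a, a regulatory subunit of protein kinase A (-0.41), joined Pde1a as 3 of 32 cyclic nucleotide genes. Araf, a kinase upstream of ERK, fell by 0.46, 1 of 18 MAPK genes. The list medians were 0.03, 0.06 and 0.01, beside 0.02 for all genes, and 13 of 21, 20 of 32 and 10 of 18 genes lay above 0. With the RNA index as a covariate the differences of Pde1a and Camk1d were -0.11 and -0.20, with SEs of 0.41 each.

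Among 27 measured genes of microtubules and tau, 5 fell and 1 rose, where 1.42% and 0.423% of all genes did. The list had 99 probe sets, more per gene than all genes had. The list median was 0.06, with 15 of 27 genes above 0. Dab1, the adaptor through which reelin receptors signal, fell in 2 of its 5 probe sets, by 1.03 and 0.85 on the log2 scale. Map1b, a microtubule-associated protein of growing axons, fell from 10.78 to 11.51 into 10.03 to 10.83, a fall of 1.78-fold in which MGMT.VEH.6.305 (10.78) lay within the MAM range. Dclk1 fell by 0.53, Kif5b, a kinesin heavy chain, by 0.45, and Gsk3b, a kinase of tau and beta-catenin, by 0.53. Mark2, another tau kinase, rose by 0.49. With the RNA index as a covariate Map1b differed by -0.11 (SE 0.34) and Gsk3b by -0.03 (SE 0.27), and the part of RNA integrity was not tested further.

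A few chromatin regulators and a kinase of RNA surveillance were called lower. The calls were 2 of 14 genes of Ctcf, Atrx and cohesin, 2 of 25 of SWI/SNF and histone modifiers and 1 of 12 of DNA methylation, where 1.42% of all genes were called lower. As the lists were chosen with earlier results of these data known, these shares are a description only. These lists had 46, 69 and 34 probe sets, more per gene than all genes had. The medians of these lists were 0.04, 0.07 and 0.08, and 11 of 14, 14 of 25 and 8 of 12 genes lay above 0. Atrx, a chromatin remodeler that places histone H3.3, read 7.32, 7.51 and 7.90 with vehicle and 5.43, 6.04 and 6.65 with MAM. The groups did not overlap (2.82-fold, adjusted p = 0.012) and a second of its 7 probe sets fell by 0.85. Ctcf, which anchors chromatin loops, fell by 1.00 ± 0.10 (SE) from 8.23 to 8.98 into 7.04 to 7.85, with the falls of the number sets within 0.1 of each other (-0.96 and -1.03). Dnmt3a, which methylates DNA de novo, read 6.87, 7.23 and 7.44 and then 5.47, 6.01 and 6.84, with MGMT.MAM.6.327 the highest of the MAM arrays. Crebbp, a histone acetyltransferase, fell by 0.84 in a dim probe set (mean 4.96) whose groups overlapped. Its brightest other probe set differed by 0.22 (SE 0.08). Bcl11a, a transcription factor of neurons and blood, fell by 0.59. Zfp800, a zinc finger gene, fell by 0.99. Smg1, a relative of ATM and ATR that acts in nonsense-mediated decay, fell 2.77-fold from a vehicle median of 7.41 to a MAM median of 5.76, and its groups overlapped through MGMT.MAM.6.327 (7.14). Atm, Atr and Prkdc were not called (0.20, 0.16 and 0.12), and Smg1 was the only call among 12 measured genes of damage kinases and checkpoints.

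**Figure D2:**
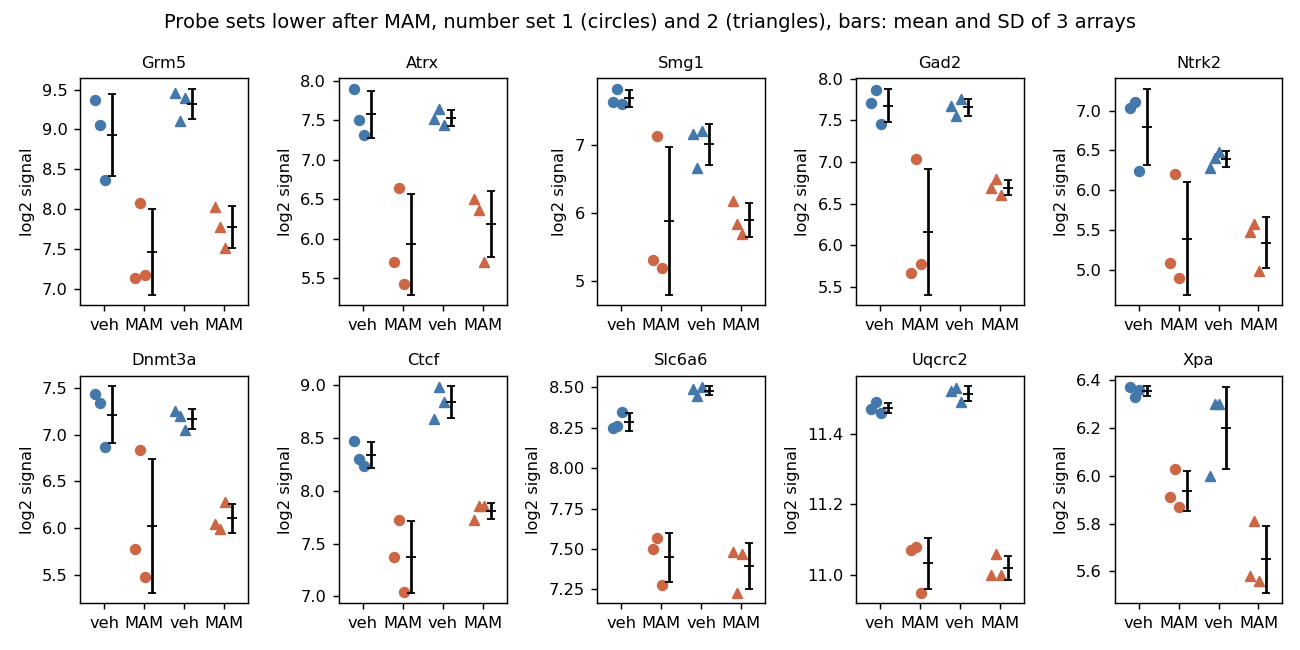
Log2 signal of 10 probe sets that were lower with MAM, by number set (circles, lower numbers; triangles, higher numbers) and treatment (blue, vehicle; red, MAM). Points are single animals and bars the mean and SD of 3 arrays. In 8 panels the groups did not overlap, while Smg1 and Xpa overlapped through 1 animal each.

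Calls among RNA-binding and translation genes went both ways. The list medians were 0.07 and 0.02, with 25 of 36 and 8 of 14 genes above 0, and 1.42% of all genes were called lower. These lists had 168 and 37 probe sets, more per gene than all genes had. Of 36 measured splicing and RNA-binding genes 6 fell, among them Celf4, a brain regulator of mRNA (-0.66, from 10.94 to 11.19 into 9.84 to 10.90), Bclaf1 (-0.68), Luc7l (-0.77), Celf1 (-0.75), Son (-0.53) and Hnrnpu (-0.46). Tra2a, a splicing activator, rose 2.01-fold, from a dim 4.17 to 4.63 into 4.90 to 6.40. Of 14 translation genes 3 fell and 1 rose. Eif4a1, the helicase of the cap-binding complex, fell in 2 of its 3 probe sets. The larger fall had little spread, from 9.64 to 9.76 into 9.02 to 9.29 (-0.61 ± 0.06, SE, adjusted p = 0.0039 in limma). The Eif4a1 probe set that was not called was brighter (mean 10.85 against 9.4) and differed by 0.02 (SE 0.06). Pabpc1, which coats poly(A) tails, fell by 0.48 and Cpeb1 by 0.48, while its relative Cpeb2 rose by 0.97, also at a low signal (3.77 to 4.60 with vehicle). Cirbp, the cold-inducible RNA-binding protein, fell by 0.30 in the lower number set and by 1.35 in the higher.

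Of 78 measured subunits of oxidative phosphorylation 7 were called lower, where 1.42% of all genes were, and none higher: Ndufa6, Ndufa7 and Ndufs7 of complex I, Uqcrc2 and Uqcrq of complex III, Cox8a of complex IV and Atp5g1 of the ATP synthase. Uqcrc2 read 11.46, 11.49 and 11.53 with vehicle and 10.95, 11.03 and 11.08 with MAM, a fall of 1.38-fold in which the gap between the groups was wider than the spread of either (adjusted p = 0.0047). The remaining 6 differences ran from -0.51 (Ndufa7) to -0.40 (Atp5g1), and in the lower and higher number sets they were -0.24 and -0.62 for Cox8a and -0.24 and -0.60 for Ndufa6. The list median was -0.07 with 21 of 78 genes above 0, against a median of 0.02 and 55.5% above 0 over all genes. Coa3, which assembles complex IV and was chosen after its values were seen, fell in both of its probe sets, by 0.66 at most. Cytosolic ribosomal protein genes had a median of -0.08, with 7 of 45 above 0 and calls for Rpl13a (-0.41) and Rps4l (-0.57). With the RNA index as a covariate the Uqcrc2 difference was -0.35 with an SE of 0.14.

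The largest rise was that of Alb, the main protein that liver secretes into plasma. It read 4.98, 5.41 and 7.06 with vehicle and 7.18, 7.45 and 9.73 with MAM, without overlap, a rise of 4.95-fold with a wide error (2.31 ± 0.49, SE, adjusted p = 0.041). All 19 measured members of the liver list lay above 0 with a median of 0.52, but Alb alone was called. Serpina1c, an alpha-1-antitrypsin, read 3.74 to 4.93 with vehicle and 5.08 to 8.5 with MAM (adjusted p = 0.12), and Cyp2e1, a cytochrome P450, differed by 1.03 (adjusted p = 0.089). The mean level of the list was 4.23 to 4.97 with vehicle and 4.62 to 6.07 with MAM, highest in MGMT.MAM.6.329 (6.07) and MGMT.MAM.6.949 (5.61). The median was 0.83 in the lower number set and 0.13 in the higher, where 10 of 19 genes lay above 0. With the RNA index as a covariate the Alb difference was -0.18 with an SE of 1.12.

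The promoters of Alb and Serpina1c are shown because the liver genes moved in 1 direction, beside that of Smg1 for a gene that fell. The sequences are RefSeq's for GRCm38.p6, each a window around the gene's start. Capitals in the first pair mark GTTAAT or its reverse complement, a part of the site of the hepatocyte factor HNF1. Capitals in the last mark CG. Alb lies at chr5:90460620-90460919 (+), Serpina1c at chr12:103904901-103905200 (-) and Smg1 at chr7:118243588-118243887 (-).
Alb: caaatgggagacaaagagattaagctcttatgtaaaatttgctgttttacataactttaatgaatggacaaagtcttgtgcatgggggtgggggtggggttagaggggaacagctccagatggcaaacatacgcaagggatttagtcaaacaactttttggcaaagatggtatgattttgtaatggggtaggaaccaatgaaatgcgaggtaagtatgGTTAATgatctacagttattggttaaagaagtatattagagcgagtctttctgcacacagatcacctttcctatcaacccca
Serpina1c: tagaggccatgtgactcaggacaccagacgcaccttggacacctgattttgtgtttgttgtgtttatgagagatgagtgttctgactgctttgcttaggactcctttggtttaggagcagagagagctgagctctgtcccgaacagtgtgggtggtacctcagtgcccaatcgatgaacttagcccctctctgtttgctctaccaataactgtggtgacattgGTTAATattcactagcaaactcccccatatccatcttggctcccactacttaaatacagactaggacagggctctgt
Smg1: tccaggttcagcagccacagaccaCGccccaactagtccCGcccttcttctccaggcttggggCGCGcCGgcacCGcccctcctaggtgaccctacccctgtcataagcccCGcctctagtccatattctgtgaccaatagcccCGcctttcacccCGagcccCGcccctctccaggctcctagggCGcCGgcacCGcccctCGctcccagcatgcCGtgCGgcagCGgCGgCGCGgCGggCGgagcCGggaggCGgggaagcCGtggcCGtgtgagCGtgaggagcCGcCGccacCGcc
GTTAAT on either strand was present in 6 of the 16 liver list genes with a promoter sequence (37.5%), in 6.27% of the 14453 matched genes, in 2 of 61 matched genes called higher and in 5 of 213 called lower. The median number of CG dinucleotides was 3.5 for the liver list, 23 for genes called higher, 24 for genes called lower and 18 for all matched genes. These letters were counted as a description of the windows.

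Of 27 measured glucocorticoid-induced genes, 3 rose, where 0.423% of all genes did. Xdh, which makes uric acid from xanthine, read 5.91, 6.00 and 6.28 with vehicle and 6.45, 7 and 7.51 with MAM. Its 1.87-fold rise had no overlap (adjusted p = 0.016). Pdk4, which slows the entry of pyruvate into the citric acid cycle, rose 1.52-fold from 5.67 to 6.15 into 6.24 to 6.90. Mertk, a receptor for the uptake of dead cells, rose 1.5-fold from 7.62 to 8.21 into 8.41 to 8.63, by nearly the same amount in each number set (0.58 and 0.59). All 27 members lay above 0 over the 12 arrays, with a median of 0.22. In wt brain at 6 hr 23 of 27 did, with a median of 0.16. In the lower number set all 27 did (median 0.55), and in the higher 11 of 27 did (median -0.04). Fkbp5 differed by 1.02 and -0.02 in these sets and Plin4 by 1.86 and 0.52, neither called, and MGMT.VEH.6.905 stood at 8.68 in the list's mean level, as high as MGMT.MAM.6.325 (8.68). The glucocorticoid response element, sought on either strand as GNACA and TGTNC 3 bases apart, occurred in 4 of 23 matched promoters of this list (17.4%) and in 0.422% of all matched genes. The 4 were those of Sgk1, Slc10a6, Map3k6 and Mt1, none of them called, and Xdh had no promoter sequence. Of matched genes called higher 1 of 61 held the element, and of those called lower 0 of 213.

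Further rises came from several groups of genes. Pglyrp1, a secreted protein that binds bacterial peptidoglycan, read 5.65 to 6.34 with vehicle and 6.62 to 7.06 with MAM (1.92-fold, adjusted p = 0.0039). Atp1b2, the glial beta subunit of the sodium pump, chosen after its values were seen, rose from 11.21 to 11.46 into 11.87 to 11.94 (0.55 ± 0.06, SE), and its other probe set differed by 0.66. Fzd2, a Wnt receptor, and Daam2, an adaptor of Wnt signaling, rose by 0.64 and 0.58, while Ctnnb1, the beta-catenin gene, fell by 0.46. With Gsk3b these made 2 rises and 2 falls among 27 Wnt genes with 73 probe sets, where 0.423% of all genes were called higher and 1.42% lower. The brightest other Fzd2 probe set differed by -0.04 (SE 0.09). Dlg2, a postsynaptic scaffold, rose by 0.68, the only call of 18 scaffold genes. It read 8.24 to 9.12 with vehicle and 8.97 to 9.90 with MAM, so that its groups overlapped over the 12 arrays. Within each number set all MAM values lay above all vehicle values. Abcc4, an efflux pump, rose by 0.88, Gmps, an enzyme of GMP synthesis, by 0.66, Ccnk, a cyclin of transcription kinases, by 0.69, Sptbn1, a spectrin, by 0.64, and the maternally expressed RNA Meg3 by 0.60 in 1 of its 11 probe sets. Endod1 rose by 0.67, Fmo2, a flavin monooxygenase, by 0.66 in 1 of 2 called probe sets, Lbh by 0.63 and the transcription factor Sp4 by 0.61. Deptor, an inhibitor of mTOR, rose by 0.40, Col4a1 of the basement membrane by 0.41 and C1qb, a complement gene of microglia, by 0.45. With the RNA index as a covariate no gene on the array was called, so the loss of these calls does not single them out. The differences were then 0.93 for Pglyrp1 (SE 0.27), 0.55 for Atp1b2 (SE 0.17), 1.78 for Cpeb2 (SE 0.48) and 0.44 for Xdh (SE 0.37). They were 0.08 for Fzd2 (SE 0.25), 0.04 for C1qb (SE 0.22) and 0.25 for Fmo2 (SE 0.26).

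**Figure D3:**
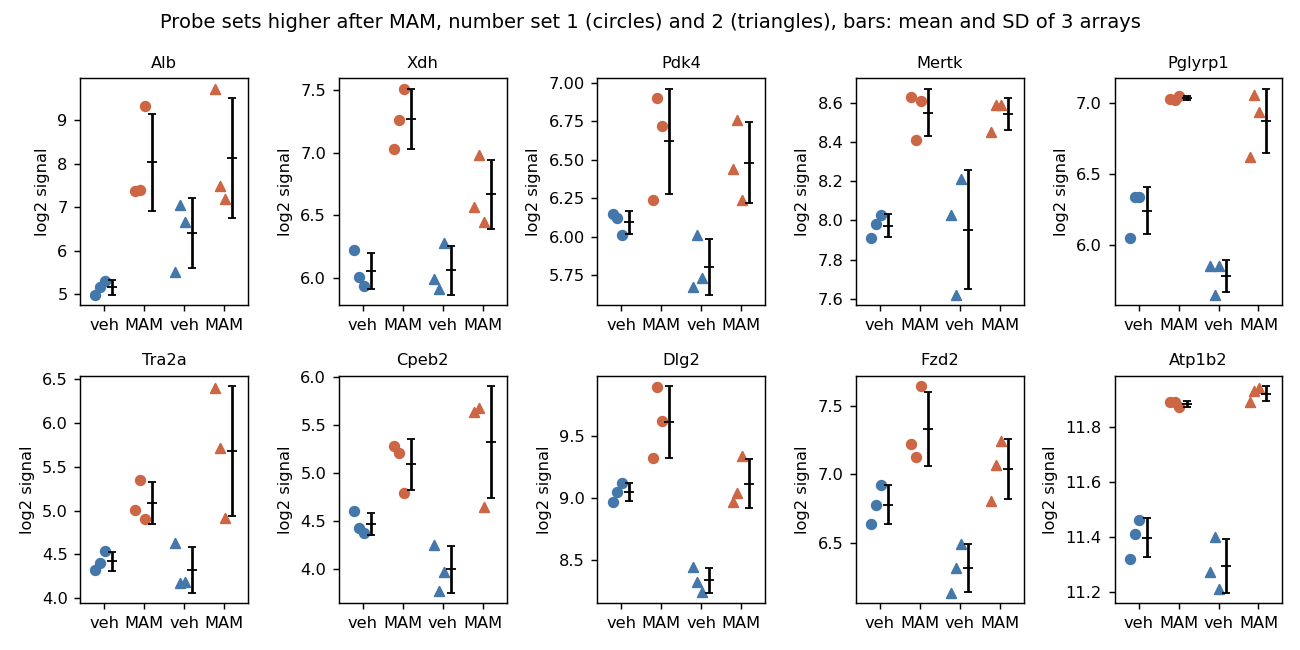
Log2 signal of 10 probe sets that were higher with MAM, by number set (circles, lower numbers; triangles, higher numbers) and treatment (blue, vehicle; red, MAM). Points are single animals and bars the mean and SD of 3 arrays. Alb spread from 7.18 to 9.73 among MAM animals, while Atp1b2 spread from 11.87 to 11.94.

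The lists of DNA damage held 4 calls, where 1.84% of all genes were called: 2 of 27 p53 targets, 0 of 28 genes of alkylation, mismatch and base excision repair, 1 of 28 of excision and strand break repair and 1 of 12 damage kinases, Smg1. Of the p53 targets, Trp53inp1, which promotes cell death and autophagy, rose by 0.41 and Sesn2, a stress-induced inhibitor of mTORC1, fell by 0.44. Cdkn1a, the p21 cell cycle inhibitor, read 7.09, 7.64 and 9.35 with vehicle and 7.40, 8.29 and 9.12 with MAM and was not called (1.15 and -0.31 in the number sets). No gene of alkylation, mismatch or base excision repair was called among 28 measured, where Pcna differed most (-0.30, SE 0.09, 2 of 28 at an unadjusted p under 0.05). Xpa, which verifies damage in nucleotide excision repair, was the only call of the 28 excision and strand break genes listed. It read 6.00 to 6.37 with vehicle and 5.56 to 6.03 with MAM (-0.48 ± 0.08, SE, adjusted p = 0.017). The lists do not hold every repair gene. Outside them Rpa2 (-0.53), Gtf2h4 (-0.41) and Smc6 (-0.42) were also called lower. Their brightest other probe sets differed by -0.31 (SE 0.10), -0.01 (SE 0.17) and -0.18 (SE 0.08). In limma none of 18 oxidative stress genes, 17 proliferation genes, 18 inflammatory genes, 19 oligodendrocyte genes or 12 choroid plexus genes passed, with 3, 1, 1, 6 and 1 of them at an unadjusted p under 0.05. In single calls Gja1, the astrocyte connexin, fell by 0.47, Hsp90b1, a chaperone of the endoplasmic reticulum, by 0.44, the interferon gene Ifi27 by 0.38 and Foxp1, abundant in striatum, by 0.53.

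The number sets gave opposite effects over much of the array. The treatment by number set interaction passed an adjusted p of 0.05 in 5841 probe sets (13%), and 35% of all probe sets differed in the same direction in both sets. All 386 called probe sets did, having been chosen on both sets together, and the interaction passed in 20 of them. Fitted alone, the higher set gave 790 genes and the lower set 3. The microglial list had medians of -0.20 and 0.40. P2ry12, a purine receptor of resting microglia, differed by -0.61 and 1.47, and it read as low as 4.60 among vehicle arrays. The microglial mean level was 6.66 and 6.79 in MGMT.VEH.6.905 and MGMT.VEH.6.903 and 7.36 to 7.83 in the other 10 arrays. Choroid plexus genes (-0.12 and 0.37), cholesterol synthesis genes (-0.05 and 0.28) and cerebellar genes (0.22 and -0.27) also differed in sign. Hypothalamic peptide genes lay below 0 in both sets (-0.31 and -0.14), with none of 12 called in limma and 3 at an unadjusted p under 0.05. Avp, vasopressin, differed by -1.12 with an SE of 0.41, and Nts, neurotensin, by -0.72 with an SE of 0.17 (adjusted p = 0.067).

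**Figure D4:**
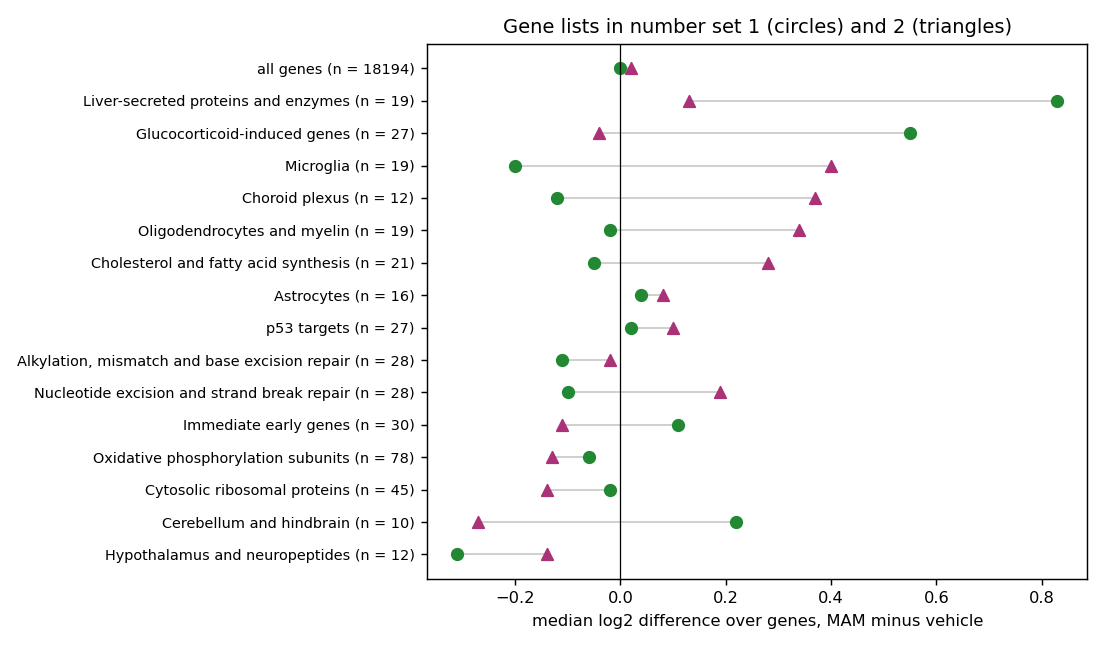
Median log2 difference over the genes of a list, 1 probe set per gene, in the lower (circles) and higher (triangles) number set, with the number of measured genes. Liver and glucocorticoid-induced genes lay at 0.83 and 0.55 in the lower set and at 0.13 and -0.04 in the higher.

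Other probe sets of the same genes mostly did not share the falls. Of the 258 genes that fell, 220 had a further probe set that was not called, and the brightest of these had a median difference of 0.00 against -0.50 for the called one. It was lower at an unadjusted p under 0.05 in 32 of the 220 genes and higher in 17, where 6.50% and 6.16% of all probe sets were. The brightest other probe set differed by -0.05 (SE 0.17) for Grm5, 0.17 (SE 0.11) for Gad2, 0.02 (SE 0.10) for Atrx, 0.11 (SE 0.11) for Dnmt3a, 0.04 (SE 0.09) for Ctcf and 0.08 (SE 0.09) for Ntrk2. It differed by 0.11 (SE 0.10) for Smg1, 0.08 (SE 0.07) for Gja1 and -0.02 (SE 0.07) for Ctnnb1. The values were -0.12 (SE 0.07) for Uqcrc2 and 0.06 (SE 0.08) for Sesn2. For Luc7l, Hnrnpu and Crebbp, among others, it went the opposite way, by 0.30, 0.20 and 0.22. The called probe set was the brighter in 44 of the 220 genes. Of the 56 genes that rose and had one, the brightest other probe set had a median of 0.12 against 0.47 and was higher at an unadjusted p under 0.05 in 12. A second probe set was called for 15 genes that fell and 2 that rose, and each value above is that of 1 probe set.

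In wt brain at the same hour the called probe sets differed little. Their medians were -0.04 for those lower and 0.13 for those higher in Mgmt-/- brain. The probe sets were chosen in the Mgmt-/- contrast, so that smaller values in wt brain say little by themselves. No gene was called in wt brain by limma (2527 probe sets at an unadjusted p under 0.05), where the RNA index averaged 0.313 with vehicle and 0.378 with MAM. The difference itself, tested as a treatment by genotype interaction over 24 arrays, passed in 8 probe sets (0.0177% of all), each among the 386. Uqcrc2 differed by 0.01 in wt brain (interaction -0.48, adjusted p = 0.021) and Xpa by 0.16 (-0.64, adjusted p = 0.021). The others belonged to Nr2f2, a nuclear receptor of neuronal fate (0.11 in wt), Ggps1, an enzyme of isoprenoid synthesis (-0.05), a second Eif4a1 probe set (0.02), Rab24 (0.01), Zfp622 (0.05) and Rnf5, a ubiquitin ligase (0.08). The interaction did not pass for Grm5 (-0.34 in wt, adjusted p = 0.21), Atrx (-0.67, adjusted p = 0.72) or Alb (-1.24, adjusted p = 0.083).

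The falls recurred in other Mgmt-/- animals that had their own vehicle groups. Of the 300 probe sets lower at 6 hr, 298 lay below 0 at 24 hr and 296 at 48 hr, where 44.3% and 48.3% of all probe sets did. Their medians were -0.39 and -0.32. They were called again in 95 and 90 cases, against 0.450% and 0.605% of all probe sets called lower. At 6, 24 and 48 hr alike 67 were lower, from 52 genes. At 24 and 48 hr Grm5 differed by -1.64 and -1.47, Smg1 by -1.88 and -1.76, Dnmt3a by -1.42 and -1.57, and Ctcf by -1.12 and -1.16, each called. Uqcrc2 (-0.32 and -0.28) and Xpa (-0.33 and -0.08) were not called at these times. The RNA index averaged 0.481 with vehicle and 0.626 with MAM at 24 hr, and 0.423 and 0.540 at 48 hr. At 168 hr, without MGMT.MAM.168.343, whose liver list averaged 13.16 against 4.29 to 5.94 in the other 11 arrays, 267 of 300 lay below 0 with a median of -0.23 and 5 were called, while with that animal 255 did and none was. The rises had medians of 0.27, 0.21 and 0.16 at the later times, with 11 and 3 of 86 called again at 24 and 48 hr (0.0576% and 0.0466% of all). Alb rose by 0.90 at 48 hr and differed by 1.61 at 24 hr (adjusted p = 0.25). Pglyrp1 differed by 0.27 and 0.22 at 24 and 48 hr, and Xdh by -0.07 and 0.38. At 168 hr without MGMT.MAM.168.343, Xdh differed by 1.12 (adjusted p = 0.011 in limma). It was the 1 rise called again at 168 hr, where 35 of all probe sets were called higher. With that animal 0 rises were called again.

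**Figure D5:**
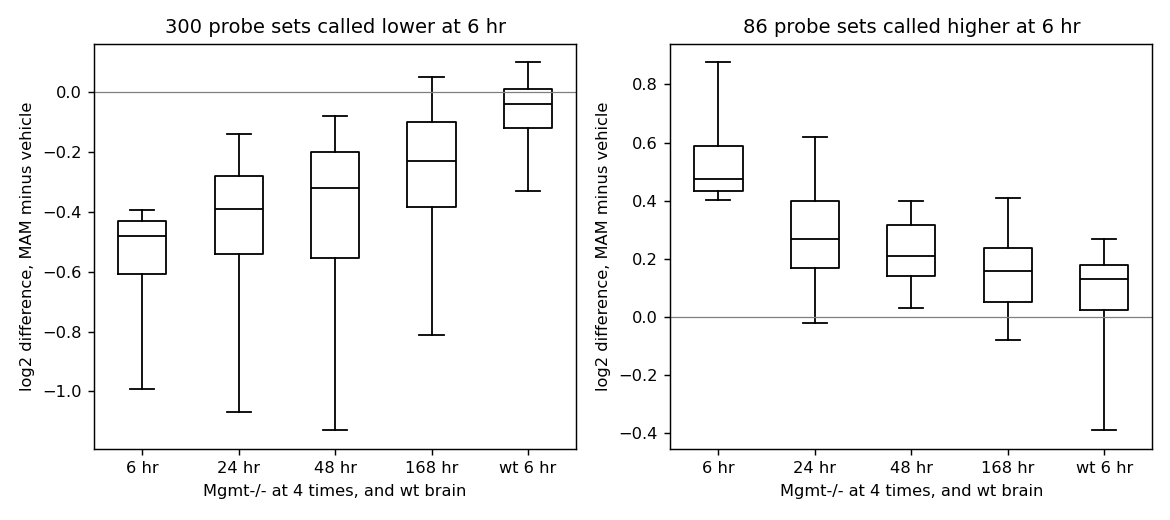
Log2 differences of the 300 probe sets called lower (left) and the 86 called higher (right) at 6 hr, at each time in Mgmt-/- brain and in wt brain at 6 hr, without MGMT.MAM.168.343 at 168 hr. Boxes are quartiles with the median, and whiskers reach the 5th and 95th percentiles. Medians of the falls were -0.48, -0.39, -0.32 and -0.23 over the times and -0.04 in wt brain.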

How the data were processed

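Brain RNA from 94 mice was hybridized to Affymetrix mouse genome arrays. The deposited values are log2 signals, which the authors made by RMA in affy. No source used here gives its version or says if the arrays were processed as one set. Probe sets were named from the platform annotation: 34958 name 1 gene, 932 several and 9211 none. Differences came from limma 3.58.1 in R 4.3.3, with treatment and number set as terms on the 12 arrays and Benjamini-Hochberg adjustment over all 45101 probe sets. A call needed an adjusted p under 0.05 and a fold above 1.3. The method was tested on simulated data. Named genes were the 15 largest rises and falls, called members of gene lists, up to 4 members of a described list, and Mgmt. The genes and lists were chosen with earlier results of these data known, so a list's share of calls is a description only. A list's median took the brightest probe set of each gene. Each array was a separate animal, and precision is limited by there being 6 arrays a group. The labels do not say which laboratory handled which number set. Alternatives changed the number set term, filters, moderation, normalization, weights, RNA index and arrays included.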

Additional observations from a re-analysis of the deposited data

Results flagged for a closer look

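Within groups of 6 arrays, 13 of 216 tested had 1 animal whose gap to its nearest neighbour took up more of the group's range than Dixon's 95% critical value allows, where chance gives about 1 in 20. MGMT.MAM.6.329 had an RNA index of 0.75 against 0.57 to 0.63 in the others (ratio 0.694), and it was lowest for Sesn2 (0.714). MGMT.MAM.6.327 was nearest to the vehicle values for Pcp4l1 (0.626), Dclk1 (0.652), Bcl11a (0.711) and Tfrc, the transferrin receptor (0.657). MGMT.MAM.6.949 was low for Pglyrp1 (0.728) and Plin4 (0.727), and MGMT.MAM.6.325 was high for Eif4a1 (0.657). Among vehicle arrays, MGMT.VEH.6.305 was low for Grm5 (0.635) and Map1b (0.751), MGMT.VEH.6.901 for Xpa (0.817) and MGMT.VEH.6.905 for Ifi27 (0.691).

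The MAM effect differed from that in wt brain by the interaction test of limma for Xpa, Uqcrc2 and Zfp622 (adjusted p = 0.021 each), Nr2f2 (0.031), Rnf5 (0.037), and Ggps1 and Rab24 (0.039 each). All 7 were lower in Mgmt-/- brain, by 0.40 to 0.83 on the log2 scale, with wt differences of -0.05 to 0.16.

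The effect differed between the number sets in 5841 probe sets. Among named genes these were Cirbp (adjusted p = 0.023), Gja1 (0.026), Ywhaz (0.028) and Hnrnpu (0.043), each lower in both sets and by more in the higher one.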

How the results depend on the processing

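All 97 named genes that were called kept their direction under every alternative that kept their probe set except the RNA index as a covariate, which turned Alb (-0.18), Bclaf1 (0.09), Cpeb1 (0.07) and Actb (0.06). The called Actb probe set (-0.42) is the 5' control from which the index is computed. Its value with that covariate therefore says nothing about Actb. No paired analysis was possible because the vehicle and MAM groups share no animal number. Of the genes named, 1.84% were called, 0.423% higher and 1.42% lower. The fit of 24 arrays called 2.96% (0.94% higher), no number set term 0.945% (0.187% higher and 0.758% lower), the lower number set alone 0.0165% (all higher, 0 lower), the higher alone 4.34% (2.65% higher), an ordinary linear model 1.2% (0.269% and 0.934%), no fold threshold 2.82% (2.19% lower), a fold above 1.5 0.511% (0.115% and 0.396%), 1 probe set per gene 0.775% (0.456% lower), cyclic loess 0.643% higher, array weights 2.94% (0.824% higher) and the RNA index as a covariate 0% (0% each way). In fits chosen after seeing the data, leaving out MGMT.MAM.6.325, MGMT.VEH.6.903 and MGMT.VEH.6.905 called 0.126% (0.044% and 0.0824%), and the first principal component as a covariate 4.61% (1.35% and 3.3%). Leaving out each array called 0.214% to 2.23%, with 0.0275% to 0.698% higher and 0.187% to 1.62% lower. The RNA index difference was 0.02 from Gapdh alone and 0.173 to 0.218 without each array. Among genes not called, the index covariate turned Mgmt (-0.26), Fkbp5 (-0.18), Serpina1c (-1.3) and Cdkn1a (-0.43), the higher set alone Mgmt (-0.42), Fkbp5 (-0.02) and Cdkn1a (-0.31), the lower set alone P2ry12 (-0.61), array weights Mgmt (-0.03) and P2ry12 (-0.04), and leaving out MGMT.MAM.6.325, MGMT.VEH.6.903 and MGMT.VEH.6.905 P2ry12 (-0.5). Mgmt ranged from -0.12 to 0.11 without each array. The cause of these changes was not tested. Low signal limits what a fold means for Syp, Tra2a, Cpeb2, Crebbp, Fmo2 and Tfrc.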
